A study of Danio rerio with 12 samples.

Results

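The presomitic mesoderm (PSM) is the unsegmented paraxial mesoderm that lies between the tailbud and the youngest somites. Its 6 arrays were set against the 4 arrays from both ends of the dissected axis, to find transcripts that were higher or lower in the middle than at either end, a shape that a linear fit along the axis can miss. The PSM arrays covered position 3 (posterior PSM), position 4 (center PSM) and position 5 (anterior PSM), with 2 arrays each. The ends were position 6 (last formed somites) and position 1 (tailbud center), also with 2 arrays each, so that the comparison used 10 of the 12 arrays of the study. The remaining 2 arrays came from position 2, the tailbud flank. They entered the estimate of the spread but neither side of the comparison.

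All samples were hand-dissected tissue from wild-type zebrafish embryos of the AB line at the 12-somite stage, grown at 23 °C, with no treatment or mutation in any group. Total RNA was hybridised to the Affymetrix Zebrafish array. The labels call the samples of a position biological replicates without saying how many embryos each stands for. The p-values therefore measure the spread between samples of the same position, moderated by that of other probe sets of similar intensity. Differences among the PSM positions, or between both ends, do not enter that spread. A low p-value thus does not mean that every PSM position differed from the ends. With 2 arrays a position, the number of arrays limits the precision of every value below.

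In vertebrate embryos, cells leave the tailbud, pass through the PSM and are cut into somites at its anterior end. Fgf and Wnt signals are high in the tailbud and posterior PSM and keep cells unsegmented, retinoic acid acts from the somites, and a Notch-dependent clock of Hes/Her repressors oscillates across the PSM. Where the clock meets the anterior PSM, Mesp transcription factors are switched on ahead of the next boundary, and Tbx6 is a T-box activator of the Mesp genes.

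A probe set was called a hump where the PSM mean exceeded the mean of both ends at a Benjamini-Hochberg adjusted p under 0.05 in limma and was above the tailbud center and above the last formed somites. A dip was the mirror image. Signals are the deposited MAS5 intensities. Differences are in log2(signal + 12.2), PSM minus ends, and a fold is 2 to the power of that difference, which understates the change of dim probe sets. Levels are not compared between genes, because each probe set has its own brightness.

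Of 10851 probe sets tested, 233 (2.15%) were humps and 151 (1.39%) were dips. The center PSM carried the highest of the 3 PSM means in 134 humps, against 66 with the peak in the posterior PSM and 33 with the peak in the anterior PSM. Dips were lowest in the anterior PSM in 61 cases, in the center PSM in 59 and in the posterior PSM in 31. Whatever the sign at each end, 261 probe sets were higher (2.41%) and 179 lower (1.65%), and 28 of each lay between the levels of the ends and were not counted. A 2-fold difference was reached by 185 of 233 humps and by 49 of 151 dips. The flank mean lay between the tailbud center and the PSM mean in 93 of the 233 humps and 95 of the 151 dips. In pieces of tissue, more cells of a type and more RNA per cell cannot be told apart.

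Testing each end alone gave a stricter list. Against the tailbud center, 391 probe sets were higher in the PSM (3.6%) and 307 lower (2.83%). Against the last formed somites, 411 were higher (3.79%) and 410 lower (3.78%). The probe sets that passed in both tests in the same direction numbered 69 upward (0.636%) and 17 downward (0.157%), called strict humps and strict dips here. All 6 PSM arrays lay above all 4 end arrays in 57 of the 69 strict humps and 124 of the 233 humps, compared with 2.57% of all tested probe sets. All 6 lay below in all 17 strict dips and in 68 of the 151 dips, compared with 1.34% of all tested probe sets. A linear fit across the 6 positions called 1434 probe sets (13.2%) but missed 187 of the humps and 102 of the dips, including 62 of the 69 strict humps and all 17 strict dips. The rule for humps and dips itself favours shapes that a linear fit misses. The counts without overlap come from the same values that made the calls, so neither is separate support for them.

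The arrays differed in a way that ran with the comparison. Every array had a trimmed mean signal of 150.0, but the median signal was 41.9 to 67.6 on the PSM arrays, against 27.3 to 47.5 at the ends, and 57.5 and 68.3 on the flank arrays. The median difference over all tested probe sets was 0.09. Centring each array on its median moved that to -0.39 and turned the split of calls round, to 101 humps and 1273 dips, so that humps made up 7.35% of the calls instead of 60.7%. Quantile normalization gave 180 humps and 93 dips with a median of -0.05, and leaving out the 3 arrays of highest median signal gave 179 humps and 84 dips. The part of the median shift in any one result was not tested, and a gene whose call or direction depended on the scaling is named as such below or with the weaker calls at the end. Single arrays also moved the counts. Leaving out last formed somites replicate 1 gave 129 humps and 21 strict humps, and leaving out anterior PSM replicate 2 gave 152 humps and 91 dips. Dips numbered 59 without last formed somites replicate 2, 70 without tailbud center replicate 2, 76 without anterior PSM replicate 1, and 90 and 95 without posterior PSM replicate 1 and replicate 2. The 17 strict dips became 31 without tailbud center replicate 1, and 3 to 11 without tailbud center replicate 2, posterior PSM replicate 1, center PSM replicate 2, either anterior PSM array or last formed somites replicate 2.

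**Figure D1:**
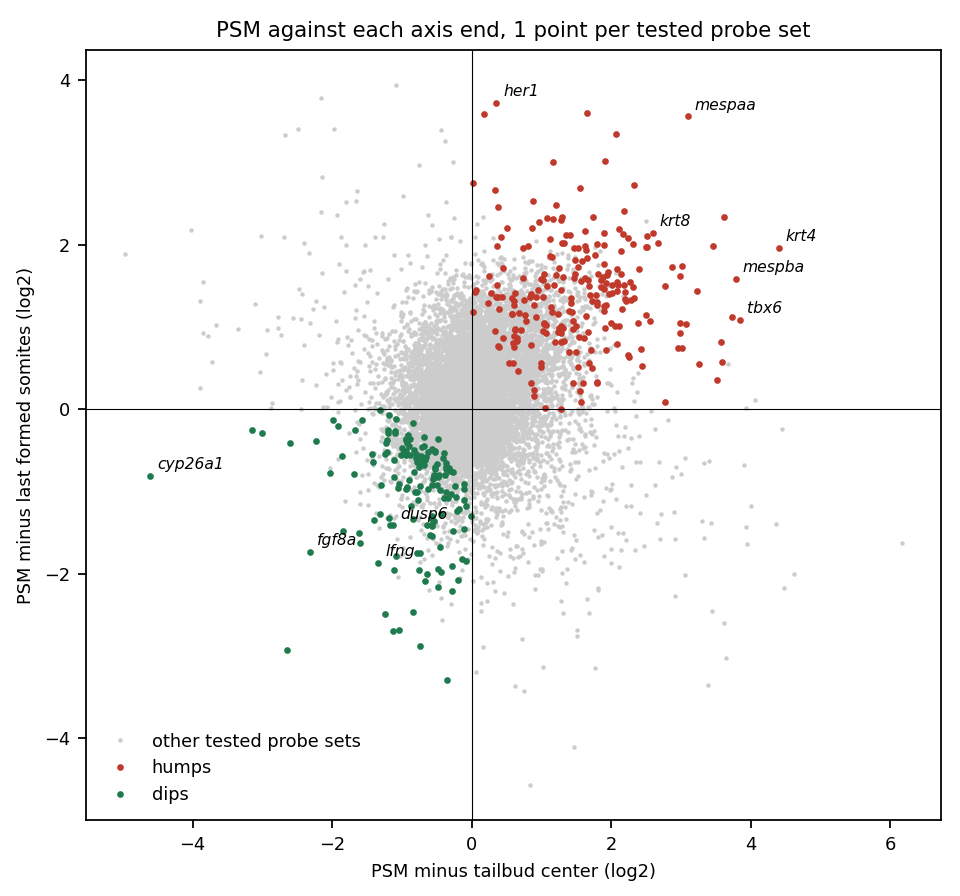
Difference of the PSM mean from the last formed somites (y axis, log2) against its difference from the tailbud center (x axis, log2), 1 point for each tested probe set, with humps and dips in colour. The 233 humps fill the upper right corner and the 151 dips the lower left, while most probe sets lie near 0 on both axes.

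The gene with the largest difference among all humps, *mespaa*, belonged to segmentation. Background percents here and below are over all tested probe sets, whereas the lists count 1 probe set a gene. Counted with 1 probe set a gene, 164 of 6834 genes were humps, 99 dips, 55 strict humps and 10 strict dips. Of 18 tested genes of segmentation and boundary formation, 5 were humps (*mespaa*, *mespba*, *tbx6*, *foxc1a* and *foxc1b*, background 2.15%), 3 of them strict (background 0.636%). None was a dip (1 at an unadjusted p under 0.05), and 1 was with median centring. For *cdh2* of this list, a probe set other than the one counted was a dip in limma (-1.54, adjusted p = 0.0399). The counted probe set of *cdh2* gave -0.35 (adjusted p = 0.211). The humps numbered 4 to 6 under 25 alternatives, which leave out the epidermis covariate and the averaging of probe sets. The median difference of the list was 0.36, against 0.09 for all tested probe sets, and was -0.11 with median centring, where all probe sets had a median of -0.39.

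*mespaa*, a Mesp transcription factor of the anterior PSM, had signals of 221.0 and 224.8 in the posterior PSM, 252.2 and 231.1 in the center and 724.8 and 441.7 in the anterior PSM, against 27.9 and 23.6 in the tailbud center and 14.6 and 16.3 in the last formed somites. All 6 PSM arrays lay above all 4 end arrays, and the 2 anterior PSM arrays were the highest. The PSM mean was 3.33 ± 0.37 (log2, SE) above the ends, a 10.1-fold difference (adjusted p = 3.53e-05), with 8.59-fold over the tailbud center and 11.8-fold over the somites. The linear fit gave 0.85 along the axis (adjusted p = 0.297). The flank arrays disagreed, at 206.7 and 23.7.

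Its paralog *mespba* had its high signals at the front of the PSM. It measured 5.7 and 56.2 in the posterior PSM, 128.4 and 181.6 in the center and 2504.8 and 1768.1 in the anterior PSM, against 6.6 and 2.7 in the tailbud center and 21.3 and 164.8 in the last formed somites. The groups overlapped, because the posterior PSM was as low as the ends and the lower center PSM array (128.4) was below the higher somite array (164.8). The difference was 2.68 ± 0.43 (adjusted p = 0.001). It passed against the tailbud center (3.78, adjusted p = 0.00016) but not against the somites alone (1.58, adjusted p = 0.0905), and with the anterior PSM left out of the PSM mean *mespba* was no longer called.

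*tbx6* peaked in the center PSM, at 820.8 and 902.0, next to 357.2 and 250.9 in the posterior PSM and 610.7 and 534.9 in the anterior PSM. The tailbud center gave 7.6 and 58.7 and the last formed somites 228.0 and 259.4. Only the lower posterior PSM array fell within the range of the somites. The difference was 2.47 ± 0.28, or 5.54-fold (adjusted p = 4.62e-05), made up of 3.85 against the tailbud center (adjusted p = 9.07e-07) and 1.08 against the somites (adjusted p = 0.0768).

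The 2 forkhead genes *foxc1a* and *foxc1b*, which act in paraxial mesoderm and somite formation, formed plateaus instead of peaks. *foxc1a* ranged over 600.8 to 1477.7 in the PSM with a median of 1185.5, against 423.3 and 573.7 in the tailbud center and 265.9 and 336.7 in the somites. *foxc1b* ranged over 174.2 to 211.3 in the PSM, against 64.4 and 81.4 in the tailbud center and 94.1 and 86.7 in the somites. Neither gene overlapped between the groups, and both were strict humps. *foxc1a* was 1.50 ± 0.19 higher (2.83-fold, adjusted p = 0.000108). *foxc1b* was 1.14 ± 0.23 higher (2.21-fold, adjusted p = 0.00541), and 0.67 with median centring, where its adjusted p was 0.0902.

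Among 26 Notch and clock genes, *her1* was the single hump (background 2.15%) and *lfng* the single dip (background 1.39%). *her1*, a clock repressor, measured 364.9 and 366.9 in the posterior PSM, 343.7 and 209.5 in the center and 204.0 and 187.6 in the anterior PSM, against 268.2 and 159.1 in the tailbud center and 7.1 and 11.2 in the somites. The PSM and tailbud arrays overlapped and only the somites stood clear. Its difference of 2.04 ± 0.28 (adjusted p = 0.000238) was 3.72 against the somites (adjusted p = 2.36e-06) and 0.36 against the tailbud center (adjusted p = 0.702). *her7*, its partner in the zebrafish clock, was 2.15-fold higher than the mean of both ends (adjusted p = 0.0461), but -0.76 against the tailbud center (adjusted p = 0.326) and so no hump. The Notch ligands *dlc* (0.67, adjusted p = 0.156) and *dld* (-0.04, adjusted p = 0.923) did not pass. The list had a median difference of 0.29, and of -0.19 with median centring.

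Among 20 tested factors of the PSM and tailbud mesoderm, *tbx6* was the hump (background 2.15%) and *fgf8a* the dip (background 1.39%). Of the 20, 14 were lower in the PSM than in the tailbud center (background 2.83%) and 10 were higher than in the somites (background 3.79%). *msgn1*, a basic helix-loop-helix factor of the posterior PSM, measured 6143.2 and 4604.1 in the posterior PSM, 1217.7 and 946.6 in the center and 228.6 and 134.8 in the anterior PSM, against 4618.3 and 4532.1 in the tailbud center and 28.0 and 125.8 in the somites. The posterior PSM and tailbud were high and the anterior PSM low, and the difference from both ends was 0.82 (adjusted p = 0.0657). *tbx16* (0.32, adjusted p = 0.397) and *tbx16l* (0.46, adjusted p = 0.307), T-box genes of the forming mesoderm, did not pass either. For all 3 the sign depended on which positions stood for the PSM. With the center and anterior PSM alone, *tbx16* was -0.76 (adjusted p = 0.0415), *msgn1* -0.37 (adjusted p = 0.53) and *tbx16l* -0.67 (adjusted p = 0.167). With the posterior and center PSM alone all passed as higher, at 1.17 (adjusted p = 0.00201) for *tbx16*, 2.04 (adjusted p = 0.000146) for *msgn1* and 1.59 (adjusted p = 0.000793) for *tbx16l*. *msgn1* and *tbx16l* also passed without last formed somites replicate 2 (1.26 and 0.87). *tbxta*, the Brachyury gene of the tailbud, and *tcf15*, a somite factor, passed the threshold at -1.29 and 1.49 but lay between the ends.

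The labelled tissue was checked on these markers. *tbx6* was above the tailbud center and the center PSM held its highest values. *msgn1* and *tbx16* were high in the posterior PSM and the tailbud center but low in the anterior PSM, where *tbx16* read 73.6 and 87.2, against 2355.0 and 1528.7 in the tailbud center and 21.2 and 14.1 in the somites. *tbxta* was highest in the tailbud center. *tcf15*, a somite factor, was high in the anterior PSM as well as in the somites. It measured 1008.7 and 1120.5 in the anterior PSM, against 10.5 and 10.8 in the tailbud center and 1235.8 and 1209.7 in the somites.

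**Figure D2:**
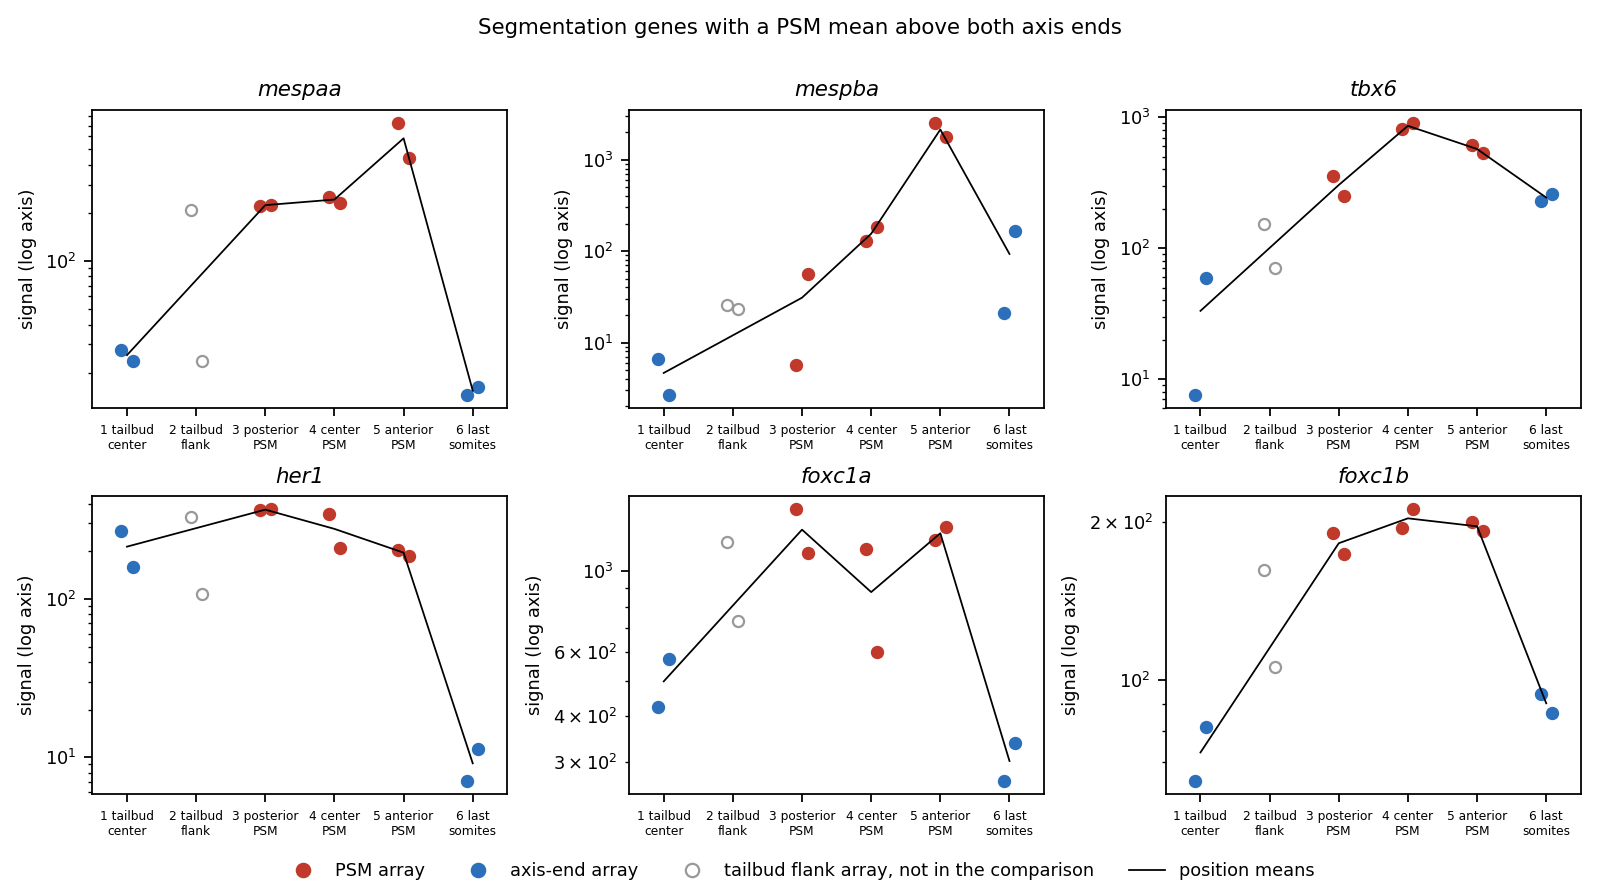
Signal of segmentation and PSM genes on each array (y axis, log scale) by position along the axis (x axis). Points are single arrays, lines join the means of the compared positions, and flank arrays are open. *mespaa* is above both ends at all 3 PSM positions, whereas *her1* stays near its tailbud level until the last formed somites.

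The myogenic factors *myf5* and *pax7a* were among the humps too. *myf5*, the first myogenic factor of the paraxial mesoderm, ranged over 367.6 to 807.0 in the PSM with a median of 532.1, against 144.0 and 175.6 in the tailbud center and 423.1 and 307.7 in the somites. The PSM and the somites overlapped. The difference was 1.12 ± 0.19 (adjusted p = 0.00162). It was 0.65 (adjusted p = 0.0836) with median centring, and the call was also lost without the intensity trend of the variances (adjusted p = 0.0585). Against the somites alone it was 0.56 (adjusted p = 0.179). *pax7a*, a paired-box gene of muscle precursors and neural tube, was 1.48 ± 0.41 higher (adjusted p = 0.0496), and another probe set of it gave 0.02 (adjusted p = 0.99). It passed against neither end alone, at 1.25 against the tailbud center (adjusted p = 0.206) and 1.71 against the somites (adjusted p = 0.0516). *myf5* and *pax7a* were the humps among 12 myogenic transcription factors (background 2.15%). Of the 12, 5 were higher than in the tailbud center (background 3.6%) and 4 lower than in the somites (background 3.78%). The list median was 1.27 against the tailbud center and -1.02 against the somites. Its summed signal was 1325 to 3137 in the PSM, against 442.9 to 635.6 in the tailbud center and 3379 to 3794 in the somites. The muscle filament list had 1 hump in 25 (*tpm4a*) and a median of 0.01.

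Epidermal genes were the list with the largest share of humps. Of 34 tested genes of the epidermis list, 16 were humps and 10 strict humps, and none was a dip (0 also at an unadjusted p under 0.05), where 2.15% of all tested probe sets were humps. The 16 became 9 without last formed somites replicate 1 or without the intensity trend of the variances, and 10 with median centring. The median difference was 1.18, with 31 of 34 genes above 0, and it stayed at 0.86 with quantile normalization and 0.71 with median centring. The summed signal of the list was 8569 to 17190 on the PSM arrays, against 3587 to 4847 in the tailbud center and 3802 to 7897 in the last formed somites. The flank arrays stood as high as the PSM, at 11480 and 20240. The humps were *anxa1a*, *apoeb*, *cdh1*, *cfl1l*, *cldni*, *epcam*, *icn2*, *krt18a.1*, *krt4*, *krt5*, *krt8*, *krt97*, *pfn1*, *spint2*, *tmsb1* and *tp63*. Of the humps that were not strict, *krt97* differed by 0.02 from the tailbud center (adjusted p = 0.989) and *apoeb* by 0.23 from the somites (adjusted p = 0.523).

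*krt4*, a keratin of the outer epidermal layer, measured 1543.6 and 871.3 in the posterior PSM, 1746.4 and 1562.5 in the center and 1407.2 and 621.2 in the anterior PSM, against 41.9 and 49.5 in the tailbud center and 179.0 and 506.7 in the last formed somites. No PSM array fell to the level of an end array. The difference was 3.19 ± 0.31, or 9.1-fold (adjusted p = 1.6e-05), second to *mespaa* among the genes named by size of difference. *krt8*, a further keratin, ranged over 372.4 to 1124.7 in the PSM, against 118.7 and 101.0 in the tailbud center and 120.7 and 196.5 in the somites, and was 5.16-fold higher (2.37 ± 0.23, adjusted p = 1.6e-05).

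*epcam*, an epithelial cell adhesion molecule, was lowest at the front within the PSM, with 1406.5 and 947.5 in the posterior, 1275.6 and 1348.9 in the center and 623.4 and 611.7 in the anterior PSM. The tailbud center gave 395.5 and 158.0 and the last formed somites 75.3 and 158.9. It was 5.52-fold higher (2.46 ± 0.25, adjusted p = 1.74e-05), and its other probe set was a hump as well (1.61, adjusted p = 0.0211). *tp63*, the transcription factor that defines basal epidermis, had a PSM range of 218.0 to 454.4, against 78.7 and 74.0 in the tailbud center and 82.7 and 190.6 in the somites. It was 2.98-fold higher (1.58 ± 0.24, adjusted p = 0.000646), with no overlap between the groups, while its other probe set gave 0.90 (adjusted p = 0.285). The tight-junction gene *cldni* was 3.5-fold higher (1.81 ± 0.26, adjusted p = 0.000318, and 0.0525 without the intensity trend) and E-cadherin, *cdh1*, 2.29-fold higher (1.19 ± 0.28, adjusted p = 0.0179).

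Further large humps outside that list were also high at all 3 PSM positions. They were high on the flank arrays as well, for example *tagln2* at 519.1 and 1022.7, *gpa33a* at 1022.1 and 1678.6 and *csrp1a* at 291.8 and 393.1. *tagln2*, an actin-binding transgelin, measured 883.2 and 525.3 in the posterior PSM, 786.4 and 929.5 in the center and 446.8 and 302.4 in the anterior PSM, against 136.5 and 112.1 in the tailbud center and 85.6 and 188.5 in the somites. It did not overlap and was 4.43-fold higher (2.15 ± 0.23, adjusted p = 3.12e-05). *tfap2a*, a transcription factor of epidermis and neural crest, was 5.2-fold higher (2.38 ± 0.28, adjusted p = 6e-05). Its groups overlapped, with anterior PSM replicate 1 (546.8) below last formed somites replicate 2 (623.6). *gpa33a*, a surface glycoprotein, was 4.71-fold higher (2.24 ± 0.25, adjusted p = 3.53e-05) and *csrp1a*, a LIM-domain protein, 5.09-fold (2.35 ± 0.33, adjusted p = 0.000293). Both were strict humps without overlap, as were *capn8* (2.16 ± 0.40, adjusted p = 0.0032), a calpain protease, and *acy3.2* (2.31 ± 0.29, adjusted p = 0.00012). The cytoskeleton list as a whole had 7 humps in 39 (*cfl1l*, *cnn2*, *flna*, *pfn1*, *tagln2*, *tpm4a* and *vim*, background 2.15%). Of these, *cfl1l* and *pfn1* were already counted in the epidermis list. The cytoskeleton list had 1 dip (*marcksa*) and a median of -0.02.

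With the mean of the epidermis list as a covariate in limma, no probe set passed as a hump or a dip. At an unadjusted p under 0.05 there were 336 humps and 355 dips, against 1058 humps and 590 dips without the covariate, and the standard errors were 2.24 times as large at the median. The direction held in 220 of the 233 humps and 149 of the 151 dips, which had been chosen for their direction on the same arrays. *mespaa* was 4.53 with the covariate (adjusted p = 0.0501) and still passed against the tailbud center (4.33, adjusted p = 0.0105) and against the somites (4.72, adjusted p = 0.00758). *tbx6* was 2.74 ± 0.625 (adjusted p = 0.201), *her1* 2.78 ± 0.597 (adjusted p = 0.183) and *foxc1a* 1.80 ± 0.403 (adjusted p = 0.198), each at least as large as without it. Others were smaller, with *mespba* at 1.18 ± 0.881 (adjusted p = 0.822), against 2.68 without it. *fgf8a* was -0.27 ± 0.699 (adjusted p = 0.959), against -2.03, and *cyp26a1* -1.24 ± 0.855 (adjusted p = 0.814), against -2.71. Whether any value differed with and without the covariate was not tested. The covariate is the mean of the list's own genes, so their smaller values follow from its construction, with *krt8* at 1.07, *krt4* at 0.96, *tp63* at 0.40 and *pfn1* at 0.19, and *krt18a.1* changed sign to -0.41.

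**Figure D3:**
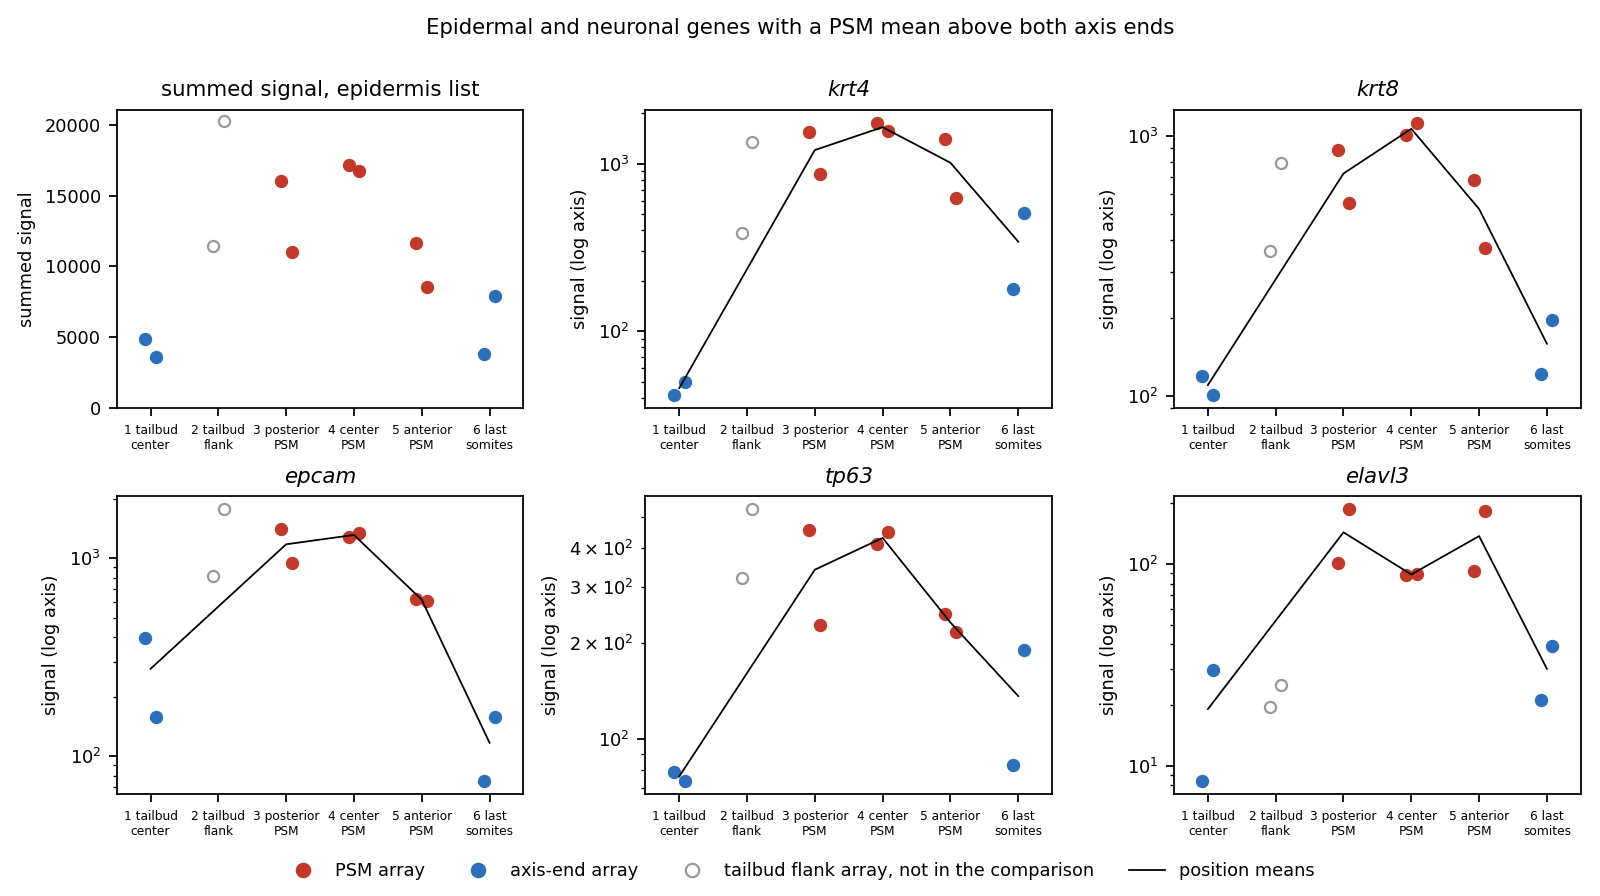
Signal of epidermal genes and of the neuronal gene *elavl3* on each array (y axis, log scale) by position (x axis). There is 1 point an array, the flank arrays are open, and 1 panel shows the summed signal of the epidermis list. For the epidermal genes the PSM and flank arrays are high and the tailbud center and last formed somites low. An example is *tp63* at 218.0 to 454.4 in the PSM and 74.0 to 190.6 at the ends. For *elavl3* the flank arrays are low, at 19.5 and 25.1.

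A minority of the neural tube markers were humps. Of 24 neural tube genes 5 were humps (*elavl3*, *fabp3*, *irx3a*, *stmn2a* and *zic2a*, background 2.15%), 2 of them strict (background 0.636%). The list had a median of 0.83, and 0.36 with median centring. The 5 became 2 without last formed somites replicate 1, center PSM replicate 1, posterior PSM replicate 2 or tailbud center replicate 1, and with quantile normalization, and 3 without last formed somites replicate 2, posterior PSM replicate 1 or either anterior PSM array. There were also 2 without the intensity trend of the variances, 2 with the center and anterior PSM alone, and 3 with median centring. The summed signal of the list was 1998 to 5014 on the PSM arrays, against 1629 to 3881 in the tailbud center, which overlaps, and 1064 to 1414 in the somites. *elavl3*, an RNA-binding protein of neurons, ranged over 88.0 to 186.7 in the PSM, against 8.4 and 29.7 in the tailbud center and 21.2 and 39.2 in the somites (1.89 ± 0.37, adjusted p = 0.00517). Its groups did not overlap, but a second probe set of the gene gave 0.28 (adjusted p = 0.851). *fabp3*, a fatty acid binding protein, ranged over 717.3 to 1055.4 in the PSM, against 445.6 and 186.0 in the tailbud center and 479.6 and 502.0 in the somites (1.24 ± 0.19, adjusted p = 0.000615).

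The next tissue lists held fewer humps but also fewer tested genes (background 2.15%). Neural crest had 3 in 7 (*tfap2a*, *tfap2c* and *zic2a*, the last also counted in the neural tube), a larger share than the neural tube list. Of these, *zic2a* differed by 0.18 from the tailbud center (adjusted p = 0.935). *foxd3* of the same list went the other way, at -1.43 (adjusted p = 0.0905), and at -2.88 against the tailbud center (adjusted p = 0.00389). In the neural crest list 5 of 7 genes had a difference above 0. Its median was 1.41. Its summed signals were 1367 to 2708 in the PSM, against 1120 to 1847 in the tailbud center and 938.6 to 1698 in the somites. Blood, endothelium and intermediate mesoderm had 1 in 23, the endothelial factor *fli1* (1.91, adjusted p = 0.00259, and 0.47, adjusted p = 0.655, by another probe set), with a median of 0.83. Its summed signals were 1130 to 9834 in the PSM, against 636.3 to 878.0 in the tailbud center and 2822 to 2994 in the somites. Endoderm, yolk and hatching gland had 2 in 16 (*apoeb* and *foxa3*) and a median of 0.61. Notochord had *foxa3* alone in 16, sclerotome *foxc1b* alone in 8, and macrophages and T cells *coro1a* alone in 3. The notochord list had a median of 0.25, but its summed signal was lower in the PSM than at both ends. It was 1608 to 2062 in the PSM, against 3301 to 5450 in the tailbud center and 2594 to 2660 in the somites. The part of these tissues in any hump was not tested.

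Germ cell RNA stood out on single arrays. *nanos3*, which is needed to maintain germ cells, measured 16.5 and 70.9 in the posterior PSM, 1316.7 and 304.0 in the center and 20.1 and 5.8 in the anterior PSM, against 12.9 and 3.9 in the tailbud center and 4.1 and 6.0 in the somites. The center PSM arrays alone were high and the anterior PSM overlapped the ends. The difference was 2.30 ± 0.49 (adjusted p = 0.00933), and 2.26 (adjusted p = 0.0506) without last formed somites replicate 1. It was the only hump among 7 germ cell genes (background 2.15%). Their summed signal was 2587 and 993.4 in the center PSM and 263.8 to 460.6 on the other PSM arrays, against 244.3 and 350.3 in the tailbud center and 314.2 and 280.4 in the somites.

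The remaining large humps differed in brightness and in evenness across the PSM. *tuba8l3*, an alpha-tubulin, measured 184.0 and 375.4 in the posterior PSM, 301.4 and 230.5 in the center and 47.0 and 434.5 in the anterior PSM, against 4.2 and 9.6 in the tailbud center and 27.6 and 40.3 in the somites (2.98 ± 0.45, adjusted p = 0.000586). *sypb*, a synaptophysin of vesicle membranes, was even across the PSM at 371.6 to 533.3, against 195.6 and 59.4 in the tailbud center and 69.9 and 146.1 in the somites (1.95 ± 0.26, adjusted p = 0.000186), while its other probe sets gave 0.49 and 0.71 and were not called. *znf346* had 223.8 to 497.5 in the PSM, but its tailbud center arrays read 359.4 and 5.3, so the groups overlapped (2.71 ± 0.52, adjusted p = 0.00416, and 0.0628 without the 3 arrays of highest median signal). *sv2bb* (2.53 ± 0.62, adjusted p = 0.0244), a synaptic vesicle protein, and *aspn* (1.90 ± 0.52, adjusted p = 0.0458), a matrix proteoglycan, complete the 15 largest.

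Brighter and smaller humps were found too. *apoc1*, an apolipoprotein singled out after its values were seen, ranged over 3670.5 to 5776.2 in the PSM, against 2214.2 and 2226.0 in the tailbud center and 2339.9 and 2578.5 in the somites. It was 2.0-fold higher (1.00 ± 0.12, adjusted p = 0.000104). Its groups did not overlap and its linear trend was 0.00090 (adjusted p = 0.999). In the matrix list 4 of 28 were humps (*col18a1a*, *col1a2*, *fbln1* and *lama5*, background 2.15%). Of these the laminin chain *lama5* was a strict hump, 3.18-fold higher (1.67 ± 0.27, adjusted p = 0.000814). The others passed against 1 end only. *col18a1a* differed by 0.004 from the somites (adjusted p = 0.995) and *col1a2* by 0.63 (adjusted p = 0.509). *fbln1* differed by 0.36 from the tailbud center (adjusted p = 0.701). Ribosome biogenesis had 3 in 93 (*noc3l*, *nop16* and *rpf2*), with *nop16* at 0.57 (adjusted p = 0.0373), a share near the 2.15% of all tested probe sets. *mycb*, a Myc transcription factor, was called (1.43, adjusted p = 0.000231) but differed by 0.09 from the somites. It was 1 of 37 immediate early genes.

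Among the gene lists, Fgf signalling had the largest share of dips. Of 17 tested genes of that pathway 3 were dips (background 1.39%), the ligand *fgf8a* and the feedback inhibitors *dusp6* and *spry4*. None was a hump (1 at an unadjusted p under 0.05). The ligand and *dusp6* were strict dips. The median of the list was 0.06, beside 0.09 for all probe sets. With median centring 7 were dips, and without the intensity trend of the variances 1 was.

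*fgf8a* measured 73.2 and 233.4 in the posterior PSM, 31.7 and 11.4 in the center and 262.4 and 282.7 in the anterior PSM, against 489.0 and 586.7 in the tailbud center and 405.3 and 309.6 in the last formed somites. The center PSM was the lowest point and every PSM array was below every end array. The ends were 4.08-fold above the PSM (-2.03 ± 0.38, adjusted p = 0.00332). The difference was -2.32 against the tailbud center (adjusted p = 0.00455) and -1.74 against the somites (adjusted p = 0.031), and the linear trend was 0.29 (adjusted p = 0.783). The flank arrays were low as well, the higher of them at 113.7. With variances estimated without an intensity trend the adjusted p was 0.0918.

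*dusp6*, a phosphatase that is induced by Fgf signalling and limits ERK, was lowest in the anterior PSM and highest in the somites. It had 1612.4 and 1192.7 in the posterior PSM, 1031.9 and 892.7 in the center and 450.3 and 633.5 in the anterior PSM, against 1922.4 and 1996.7 in the tailbud center and 2398.5 and 2406.3 in the somites. The groups did not overlap, and the ends were 2.41-fold above the PSM (-1.27 ± 0.13, adjusted p = 2.74e-05). A dimmer probe set of the gene was not called (-0.23, adjusted p = 0.781). *spry4*, a Sprouty inhibitor, had 454.0 and 743.8, then 199.3 and 258.5, then 27.7 and 56.1 along the PSM, against 443.4 and 1377.7 in the tailbud center and 303.0 and 340.9 in the somites. It overlapped with both ends, and its difference of -1.40 ± 0.27 (adjusted p = 0.00391) was -0.77 against the somites (adjusted p = 0.183). Without the intensity trend its adjusted p was 0.101.

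*lfng*, the Fringe glycosyltransferase that modifies Notch, was a strict dip. Its signals were 318.4 and 621.7 in the posterior PSM, 156.7 and 388.9 in the center and 375.3 and 571.3 in the anterior PSM, against 690.9 and 1327.4 in the tailbud center and 1205.9 and 1613.6 in the somites. The highest PSM array was below the lowest end array. The ends were 3.04-fold above the PSM (-1.60 ± 0.30, adjusted p = 0.00377), and without the intensity trend the adjusted p was 0.115.

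Dips with 1 dominant end included those of the retinoic acid and Wnt lists. *cyp26a1*, which degrades retinoic acid, measured 304.8 and 370.4 in the posterior PSM, 204.5 and 5.2 in the center and 67.8 and 87.4 in the anterior PSM, against 3150.6 and 2865.5 in the tailbud center and 318.9 and 131.6 in the somites. Almost all of its difference of -2.71 ± 0.43 (adjusted p = 0.000868) came from the tailbud, since the value against the somites was -0.81 (adjusted p = 0.418). *axin2*, a feedback inhibitor and target of Wnt signalling, was -1.65 ± 0.31 (adjusted p = 0.00368), with -3.01 against the tailbud center and -0.29 against the somites (adjusted p = 0.727). Neither was called without the intensity trend. *axin2* was the 1 dip of 22 Wnt genes and *cyp26a1* the 1 dip of 18 retinoic acid genes (background 1.39%). The Wnt list also held 1 hump (background 2.15%), *sfrp1a* (1.83, adjusted p = 0.00668), a secreted Wnt antagonist.

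*nt5dc2*, a 5′-nucleotidase domain protein, was the clearest dip outside the signalling lists. It had 1124.2 and 948.0 in the posterior PSM, 678.3 and 750.3 in the center and 659.2 and 426.5 in the anterior PSM, against 1579.0 and 2154.5 in the tailbud center and 1846.3 and 1722.1 in the somites. Its groups did not overlap, and the ends were 2.45-fold above the PSM (-1.30 ± 0.15, adjusted p = 6e-05). Smaller strict dips were *txndc9* (-0.93, adjusted p = 0.00962), *vps53* (-0.98, adjusted p = 0.0078), a subunit of a vesicle-tethering complex, and *unm_hu7910* (-0.97, adjusted p = 0.0012). *hic1l* (-1.38, adjusted p = 0.0243), *lrrc8aa* (-1.02, adjusted p = 0.0231), *ergic2* (-1.29, adjusted p = 0.0239) and *usp42* (-1.66, adjusted p = 0.0299) complete the 12, and for *ergic2* and *usp42* another probe set had the opposite sign and was not called. *usp42* was -2.47 against the somites (adjusted p = 0.00682) but -0.85 against the tailbud center (adjusted p = 0.467).

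**Figure D4:**
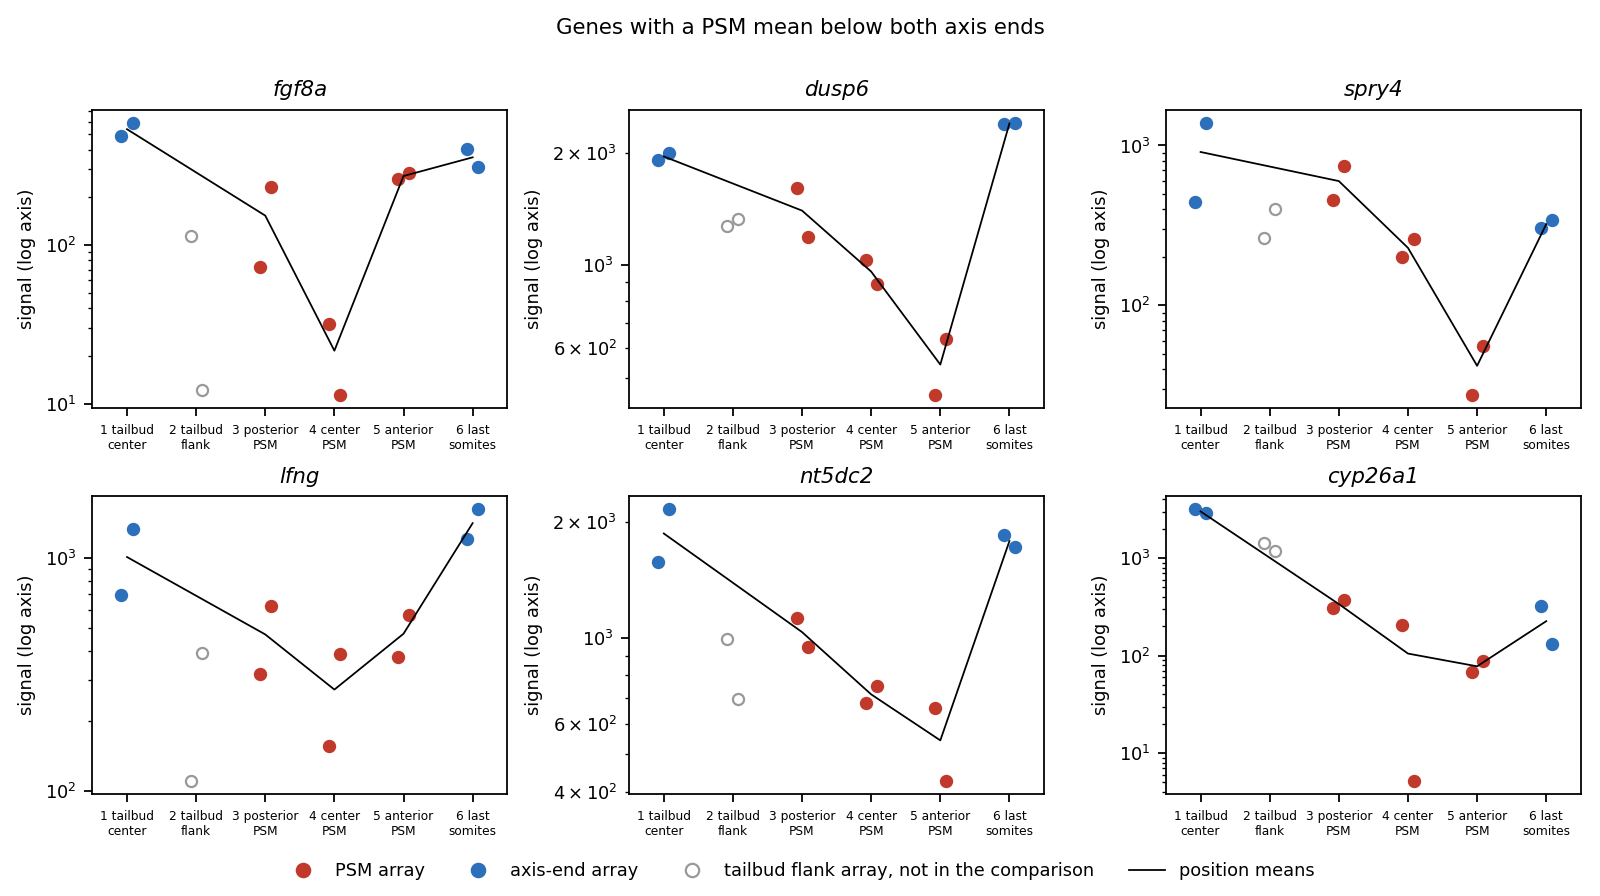
Signal of the leading dips on each array (y axis, log scale) by position (x axis), with 1 point an array. *fgf8a* has its lowest arrays in the center PSM, at 31.7 and 11.4, and *dusp6* in the anterior PSM, at 450.3 and 633.5, below all 4 end arrays in both cases.

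A number of DNA replication genes were low in the PSM, and the list was as low on the flank. Its summed signal was 21970 to 25950 in the PSM and 21680 and 25430 on the flank arrays. The tailbud center gave 38650 and 34640 and the somites 27160 and 22600. Of 52 tested, 5 were dips (*dnmt1*, *gins4*, *mcm3*, *nasp* and *rfc4*, background 1.39%). None was a hump (0 also at an unadjusted p under 0.05), and the median was -0.31. The 5 became 3 without anterior PSM replicate 1, center PSM replicate 1, posterior PSM replicate 2 or tailbud center replicate 1, 27 with median centring and 0 without the intensity trend. Against the tailbud center 17 of 52 were lower (background 2.83%), with a list median of -0.65, and against the somites 1 of 52 was lower, with a median of 0.06. *mcm3*, a subunit of the replicative helicase, ranged over 353.8 to 585.6 in the PSM, against 985.5 and 942.5 in the tailbud center and 714.5 and 707.6 in the somites. It did not overlap between the groups (-0.73 ± 0.14, adjusted p = 0.0039). Against the somites alone, however, *mcm3* was -0.51 (adjusted p = 0.0851), and the other named dips did not pass either. Their adjusted p-values in limma were 0.282 (*dnmt1*), 0.261 (*gins4*), 0.134 (*nasp*) and 0.476 (*rfc4*). The maintenance methyltransferase *dnmt1* (-0.79, adjusted p = 0.00476) and the histone chaperone *nasp* (-0.87, adjusted p = 0.00328) overlapped with the somites. Another probe set of *rfc4* had the opposite sign.

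Other growth lists held single dips, shares near the 1.39% of all tested probe sets that were dips or resting on 1 gene. *rpl6* was 1 of 72 ribosomal protein genes (-1.38, adjusted p = 0.00716, and 0.149 without the intensity trend), *cdc25b* 1 of 52 mitotic genes (-0.68, adjusted p = 0.0305) and *atp5l* 1 of 69 genes of oxidative phosphorylation (-0.61, adjusted p = 0.0235). *atp5l* changed sign to 0.18 (adjusted p = 0.771) where the probe sets of a gene were averaged. *hoxb3a* was 1 of 19 anterior Hox genes (-0.71, adjusted p = 0.0325). Against the tailbud center alone, *rpl6* was -0.67 (adjusted p = 0.363), *atp5l* -0.11 (adjusted p = 0.85) and *hoxb3a* -0.34 (adjusted p = 0.522). The chaperone list had 1 dip (*hspb1*) and 1 hump (*fkbp10b*, background 2.15%) in 58. *gpia* was the hump of 21 glycolysis genes and *cdh1* that of 27 adhesion receptors (background 2.15%). None of 30 BMP genes was a hump or dip in limma, where 1 hump and 3 dips had an unadjusted p under 0.05. None of 15 genes of Hox groups 9 to 13 was either, where 2 humps and 1 dip had an unadjusted p under 0.05. Of the 15, 6 were higher than in the somites (background 3.79%) and 3 lower than in the tailbud center (background 2.83%).

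**Figure D5:**
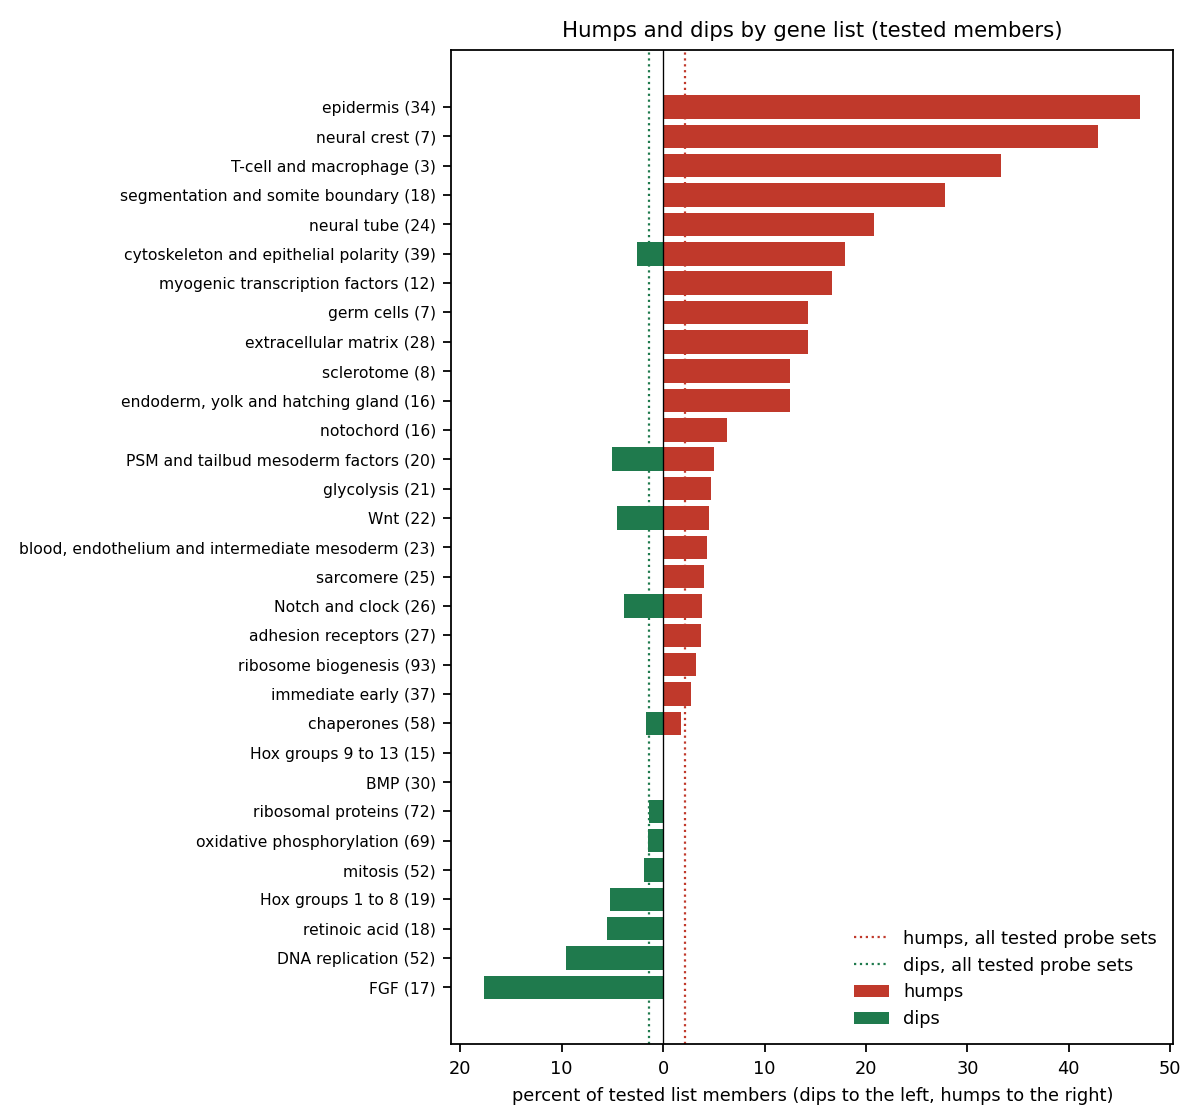
Percent of the tested members of each gene list that were humps (bars to the right) or dips (bars to the left), with the number tested in brackets and dotted lines at the percent for all tested probe sets, 2.15 and 1.39. The epidermis list has the largest share of humps, 16 of 34, and the FGF list the largest share of dips, 3 of 17.

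The calls differed in how far they rested on single arrays. Of 85 called genes covered by the lists or the size ranking, 46 kept their call when each of the 12 arrays was left out in turn. These include the segmentation genes *mespaa*, *mespba*, *tbx6*, *foxc1a* and *foxc1b*, the clock gene *her1*, the epidermal *krt4*, *krt8*, *epcam*, *cldni* and *tp63*, and the dips *fgf8a*, *dusp6*, *spry4*, *lfng*, *nt5dc2*, *cyp26a1* and *mcm3*. Without last formed somites replicate 1 alone, the calls of *nanos3* (adjusted p = 0.0506), *krt97* (0.0506), *icn2* (0.0562), *hspb1* (0.0599), *krt18a.1* (0.0718) and *tfap2c* (0.0794) ended. Without tailbud center replicate 2 alone, that of *vps53* did (0.0673). Either of these arrays ended the calls of *coro1a*, *flna*, *gpia* and *txndc9*, with adjusted p-values of at most 0.0939.

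The other 28 calls ended without any of 3 or more arrays. These weaker humps were *anxa1a*, *apoeb*, *cdh1*, *spint2*, *aspn*, *sv2bb*, *pax7a*, *irx3a*, *stmn2a*, *zic2a*, *foxa3*, *cnn2*, *vim*, *col18a1a*, *col1a2*, *fbln1*, *noc3l*, *nop16* and *rpf2*. The weaker dips were *hic1l*, *ergic2*, *lrrc8aa*, *usp42*, *gins4*, *rfc4*, *cdc25b*, *hoxb3a* and *atp5l*. The highest adjusted p among them was 0.24, for *pax7a*. Median centring ended 21 of the 85 calls, which beside *foxc1b*, *myf5*, *gpia*, *coro1a*, *flna* and *krt18a.1* all belong to these weaker humps. Quantile normalization ended 19, of which *coro1a* and *gpia* are the exceptions to the weaker list. Variances without the intensity trend ended 47, those of *mcm3*, *nasp*, *dnmt1*, *fabp3*, *krt5* and *tpm4a* among them.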

How the data were processed

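Signals came from 12 arrays, 1 per sample, of 6 positions with 2 samples each. The authors deposited linear signal intensities per probe set, made with MAS5 per the submitters' processing notes, and no detection calls were used here. Each array's mean after trimming 2% at each end was 150.0. The arrays hold 15617 probe sets, of which 115 controls were left out. Of the other 15502, 10795 had 1 gene symbol in the platform annotation, 135 several and 4572 none, and 10711 matched RefSeq by gene ID. Values were set to log2(signal + 12.2), where 12.2 is the 25th percentile of all values. A filter on mean log2 value at the 30th percentile removed 4651 probe sets, leaving 10851 in the test.

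A mean per position was fitted on all 12 arrays with limma 3.58.1 in R 4.3.3 (eBayes with an intensity trend, 6 residual and 12.84 prior degrees of freedom), and contrasts were taken as the mean of positions 3, 4 and 5 minus the mean of positions 1 and 6, minus each end alone, and as a linear trend. Errors on differences are standard errors of that fit. P-values were adjusted over all tested probe sets by Benjamini-Hochberg, with a threshold of 0.05. The scripts were tested on simulated data.

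For genes, the probe set with the highest mean log2 value stood for a symbol, in 31 gene lists. Named were the 15 humps and 12 dips with the largest value of the smaller of their differences from the ends, among symbols other than clone or locus placeholders whose highest position mean exceeded 97.3, the median signal. List members that were humps or dips, and uncalled members of the lists of PSM and tailbud factors, segmentation and Notch, were named too. The comparison and the lists were chosen with earlier results of these data known. Alternatives were another normalization, offset, filter, variance model, array weights, replicate block, array set, PSM definition, 1 averaged value a gene, an epidermis covariate and each array left out.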

Additional observations from a re-analysis of the deposited data

Results flagged for a closer look

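One value lay far from the others of its group. *sv2bb* had a signal of 5.8 in anterior PSM replicate 1, while the other 5 PSM arrays ranged over 151.7 to 464.7. The gap to the nearest of them was 0.674 of the range of the PSM group on the log2 scale. Groups of the leading genes numbered 54, and chance marks about 1 in 20 such groups.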

How the results depend on the processing

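Beside 233 humps, 151 dips, 69 strict humps and 17 strict dips, the settings that moved a count by over 1.5 times were these. Median centring gave 101, 1273, 19 and 114, and variances without the intensity trend 122, 15, 22 and 4. The epidermis covariate gave 0, 0, 3 and 0, with larger standard errors by construction. Averaging the probe sets of a gene gave 143 humps, 73 dips and 9 strict dips, with fewer features tested. Array weights gave 373 humps, 104 strict humps and 30 strict dips. Quantile normalization gave 93 dips and 10 strict dips, and leaving out the 3 arrays of highest median signal 84 dips. Leaving out 1 array gave 129 to 314 humps, 59 to 181 dips, 21 to 82 strict humps and 3 to 31 strict dips. Except where construction is named, the cause was not tested.

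Among called genes, *atp5l* with averaged probe sets (0.18) and *krt18a.1* with the covariate (-0.41) changed sign. *tbx16*, not called, passed with the opposite sign with the PSM as positions 4 and 5 (-0.76), and other values that had not passed crossed 0, such as *msgn1* (-0.37 to 2.04). Of 723 values of the leading genes under 27 settings, 623 kept direction and call, 100 kept direction only and none reversed. The replicate block gave 258 humps, 165 dips, 76 strict humps and 21 strict dips. Replicate differences of different positions correlated at -0.0707 to 0.0848 across probe sets, none over 0.1. With 2 arrays a position, these values cannot tell whether samples of the same replicate number shared embryos or handling. Replicate 1 had the lower median signal at each compared position, for example 36.2 against 47.5 in the tailbud center and 27.3 against 33.7 in the somites. On the flank it had the higher one (68.3 against 57.5). The count of arrays limits the precision, and dim probe sets vary most, since without detection calls background cannot be marked.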
